A study of Gallus gallus with 4 samples.

Results

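Endogenous retroviruses are the remains of retroviral infections of the germ line, and their internal parts hold what is left of the viral gag, pol and env genes. The internal parts studied here are the repeat names that end in -int and do not begin with ENS: 14 of the 11336 repeat names in the deposited tables. The rule for choosing them used the names and no measured value. All 14 had reads in every library, and all 14 passed the filter on low counts, which kept 2803 of the 11336 names.

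The RNA came from cranial neural folds, the head part of the closing neural plate, of chick embryos (Gallus gallus) at an early Hamburger-Hamilton stage 9. Knockout folds came from the right side, which was electroporated at stage 4 with Cas9 and guides that target Chiwi (PIWIL1, a PIWI protein of the chicken). Control folds came from the left side, electroporated with Cas9 and control guides, so side and guide cannot be told apart. For all 4 libraries, the time was 18 hours up to electroporation and 14 hours after it, and the temperature was 37 °C. Each group had 2 libraries, and every library pooled tissue of several embryos and held electroporated and other cells of the fold. No strain or sex is given, and nothing states that the pools of a group were separate sets of embryos, so the p-values measure the spread between these libraries, which may be technical. In such bulk tissue, a change in the number of cells and a change in RNA per cell cannot be told apart.

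A complete provirus has a long terminal repeat (LTR) at either end, which carries the viral promoter and the signal for the end of the transcript, and the internal genes lie between. Recombination between the LTRs often removes the internal part and leaves a solitary LTR, so internal reads come from copies that kept some of their genes, or from host transcripts that run through such copies. PIWI proteins bind small piRNAs and are best known for silencing transposons, retroviruses among them, in the germ line. The comparison asked whether RNA from such elements changes when Chiwi is targeted in an embryonic tissue outside the germ line.

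The gene tables held 38783357 to 40352750 reads per library, and 2707324 to 2942281 reads were on repeat names. The gene IDs could not be paired with symbols (0 of 24356 matched), so the level of Chiwi itself and the markers of the tissue were not analysed here. Levels below are in CPM: the reads on a repeat name, all its genomic copies together, divided by the summed gene reads of the same library and multiplied by 1000000. They are not corrected for length, because neither the length nor the number of copies behind a name is in the tables used here. A rank by CPM therefore orders names by reads, not by transcription per copy.

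Internal retroviral reads were readily detected in the neural folds. Summed over the 14 names, there were 57132 and 59402 reads in knockout replicates 1 and 2, and 61583 and 58327 reads in control replicates 1 and 2. This was 5.64% and 5.43% of the repeat reads outside simple and low-complexity repeats in the knockout libraries, and 5.92% and 5.69% in the control libraries. Both knockout shares lay below both control shares, though knockout replicate 1 and control replicate 2 were close. By reads scaled to gene reads, the same order was found for 12.8% of all single names tested. The difference in shares was not tested. Among the 319 names that are not simple or low-complexity repeats, all 14 were within the first 100 by reads and 7 were within the first 50. Over all names the best rank was 26 and the worst 435.

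The reads were concentrated in a few families. GGERV20_I-int, the internal part of a chicken family known here by its name only, averaged 482 CPM over the 4 libraries and took 32.3% of the summed level. It ranked 14 among the names outside simple repeats. GGLTR7-int, the internal part of a family named for its LTR, averaged 185 CPM, and GGERVL-C-int averaged 184 CPM. These leading 3 names held 57.1% of the summed level and the leading 5 held 71.6%. The least read name, GGERVK1-int, averaged 14.2 CPM, 33.8-fold below GGERV20_I-int.

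The order of the names was almost fixed. GGERV20_I-int, GGERVL18-int, EAVHP_I-int and GGERV28_I-int held ranks 1, 8, 9 and 12 of the 14 in each of the 4 libraries, and only close neighbours exchanged places. GGLTR7-int and GGERVL-C-int exchanged ranks 2 and 3, GGLTR11-int and GGLTR10C-int exchanged 10 and 11, and the GGERVK names exchanged 13 and 14. GGERVL-A-int, GGLTR10D-int, RSV-int and GGERVL-B-int lay between 4 and 7. Within each of these sets, names adjacent in mean level had overlapping ranges over the 4 libraries.

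**Figure D1:**
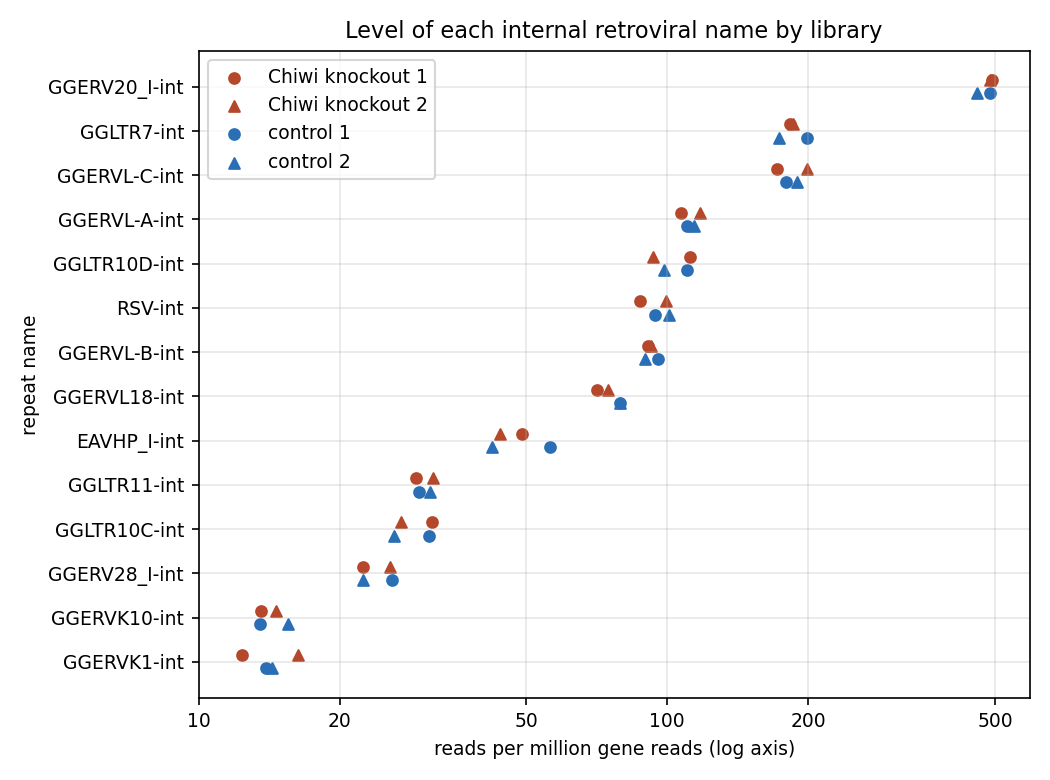
Level of each of the 14 internal retroviral names in the 4 libraries, in CPM (scaled by gene reads) on a log axis, with the knockout libraries drawn above the control libraries for each name. The names span 12.4 to 494 CPM, and for 12 of the 14 the knockout and control points overlap.

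Scaled by gene reads, knockout and control tissue had nearly the same summed internal level. The sum was 1473 and 1508 CPM in knockout replicates 1 and 2, against 1526 and 1455 CPM in control replicates 1 and 2. The mean was 1491 ± 24.8 CPM in knockout folds, against 1490.5 ± 50.4 CPM in control folds (SD, n = 2 each), a ratio of 1.0001. Both knockout values lay between the control values. For comparison, the 2 internal names that begin with ENS reached 852 ± 123 CPM in knockout folds, against 728 ± 114 CPM in control folds. Their libraries overlapped, at 939 and 765 CPM in knockout replicates 1 and 2, against 809 and 647 CPM in control replicates 1 and 2. Neither ENS name passed the edgeR quasi-likelihood test (adjusted p = 0.9997). The 45 LTR names outside ENS reached 1461 ± 112 CPM in knockout folds, against 1501 ± 28.3 CPM in control folds, and their libraries overlapped too.

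Name by name, 0 of the 14 passed the edgeR quasi-likelihood test at an adjusted p under 0.05, with 0% of the 2803 names tested passing in the same fit (smallest adjusted p = 0.9997). At an unadjusted p under 0.05 there were 0 of the 14, beside 1.39% of all names tested, and DESeq2 and limma-voom likewise gave 0 of the 14 at either threshold. The log2 fold change was above 0 for 5 of the 14 and below 0 for 9, with a median of -0.010, and over all names tested 51.1% were negative, with a median of -0.0043. The fold changes ran from -0.13 for GGERVL18-int to 0.054 for GGERV20_I-int. The median size without sign was 0.026, against 0.13 over all names tested, most of which had fewer reads. Over the 235 tested names outside simple and low-complexity repeats it was 0.077. When 1 library was left out, 12 of the 14 changed sign with at least 1 of the libraries, and GGERV20_I-int and GGERVL18-int did not. For both of these the groups did not overlap, so leaving out 1 library could not turn the sign. The median over all names tested in the same fits moved too. It was 0.030 without knockout replicate 1, -0.044 without knockout replicate 2, 0.051 without control replicate 1 and -0.026 without control replicate 2. The share of all names tested that changed sign was not computed.

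The intervals show how large a change the spread between these libraries leaves room for. As that spread may be technical, they need not cover variation between embryos. The 95% interval of the log2 fold change extended 0.21 to 0.30 to either side, and the 14 intervals reached from 0.786-fold to 1.25-fold. They are intervals for single names, and they rest largely on the spread of all repeat names, with 27.4 prior degrees of freedom beside those of the 4 libraries. Untransfected cells in the fold are part of the measured RNA, so the intervals refer to the whole dissected tissue and not to edited cells.

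Only GGERV20_I-int and GGERVL18-int separated the groups, 2 of 14 or 14.3%, beside 25.8% of all names tested. GGERV20_I-int had 494 and 489 CPM in knockout replicates 1 and 2, against 488 and 459 CPM in control replicates 1 and 2. The separation was narrow, since knockout replicate 2 and control replicate 1 were 489 and 488 CPM. Its log2 fold change was 0.054 (1.04-fold, SE 0.10, 95% interval -0.16 to 0.27). Both knockout libraries above both control libraries was found for 12.9% of all names tested.

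GGERVL18-int belongs to the GGERVL names, the chicken counterparts of ERVL, a group of endogenous retroviruses related to the foamy viruses. It had 70.8 and 74.5 CPM in the knockout libraries, against 79.4 and 79.1 CPM in the control libraries. Its log2 fold change was the farthest from 0 of the 14, at -0.13 (0.917-fold, SE 0.11, 95% interval -0.35 to 0.098), with the smallest unadjusted p (0.26, edgeR quasi-likelihood test). Both knockout libraries below both control libraries was found for 12.8% of all names tested. GGERVL18-LTR, the LTR of the same family, had 53.3 and 62.3 CPM in the knockout libraries, against 63.2 and 59.1 CPM in the control libraries, and its groups overlapped.

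The other 3 GGERVL names overlapped between the groups. GGERVL-C-int had 171 and 198 CPM in knockout replicates 1 and 2, against 179 and 189 CPM in control replicates 1 and 2 (log2 fold change 0.0021, SE 0.11). GGERVL-A-int had 107 and 118 CPM in the knockout libraries, against 110.4 and 114 CPM in the control libraries (-0.0028, SE 0.11). For both, the control values lay between the knockout values. GGERVL-B-int had 91.1 and 92.2 CPM in the knockout libraries, against 95.7 and 89.5 CPM in the control libraries (-0.015, SE 0.11), and here the knockout values lay between the control values. Summed over the 4 GGERVL names, the level was 461 ± 30.3 CPM in knockout folds, against 469 ± 4.89 CPM in control folds.

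RSV-int and EAVHP_I-int are the names of alpharetroviruses, the group of the Rous sarcoma and avian leukosis viruses. RSV-int marks sequence related to Rous sarcoma virus itself, and EAVHP_I-int belongs to EAV-HP, an endogenous avian retrovirus whose env gene is closely related to that of avian leukosis virus subgroup J. RSV-int had 87.4 and 99.2 CPM in knockout replicates 1 and 2, against 94.3 and 101 CPM in control replicates 1 and 2. The groups overlapped, and the fitted log2 value was -0.066 (SE 0.11, 95% interval -0.29 to 0.16). EAVHP_I-int had 49.0 and 44.0 CPM in the knockout libraries, against 56.2 and 42.3 CPM in the control libraries. The control libraries of EAVHP_I-int were the farthest apart of any of the 14 names (0.41 log2 units), and its log2 fold change of -0.083 (SE 0.13, 95% interval -0.34 to 0.18) turned to 0.14 without control replicate 1. Summed over both names, the level was 136.4 and 143.2 CPM in the knockout libraries, against 150.5 and 143.4 CPM in the control libraries. Both knockout sums lay below both control sums, though the replicate 2 libraries were nearly level. The same order was found for 12.8% of all single names tested, and neither RSV-int nor EAVHP_I-int alone showed it.

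The 4 names taken from chicken LTR families overlapped between the groups. GGLTR7-int had 183 and 186 CPM in knockout replicates 1 and 2, against 199 and 173 CPM in control replicates 1 and 2 (log2 fold change -0.012, SE 0.11). Its knockout values lay between the control values. GGLTR10D-int had 112 and 93.0 CPM in the knockout libraries, against 110.4 and 98.6 CPM in the control libraries (-0.029, SE 0.11), and GGLTR10C-int had 31.4 and 27.0 CPM, against 31.0 and 26.2 CPM (0.032, SE 0.13). In these GGLTR10 names, replicate 1 was the higher library in both groups. GGLTR11-int had 29.1 and 31.7 CPM in the knockout libraries, against 29.5 and 31.1 CPM in the control libraries (0.0031, SE 0.12), with replicate 2 the higher in both groups. Together the 4 names summed to 346 ± 12.5 CPM in knockout folds, against 349 ± 29.0 CPM in control folds.

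The least read names were GGERV28_I-int and the GGERVK names, whose type, ERVK, is used for elements like the betaretroviruses. GGERVK1-int had 12.4 and 16.3 CPM in knockout replicates 1 and 2, against 14.0 and 14.3 CPM in control replicates 1 and 2 (log2 fold change 0.023, SE 0.15). Its knockout libraries were 0.40 log2 units apart and enclosed the control values. GGERVK10-int lay between 13.6 and 14.6 CPM in knockout and between 13.5 and 15.5 CPM in control tissue (-0.039, SE 0.14). GGERV28_I-int lay between 22.5 and 25.6 CPM in knockout and between 22.5 and 25.8 CPM in control tissue (-0.0080, SE 0.13). Counting error was small even here: the relative Poisson error was 4.56% in the library with the fewest reads on GGERVK1-int and 0.738% for GGERV20_I-int.

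**Figure D2:**
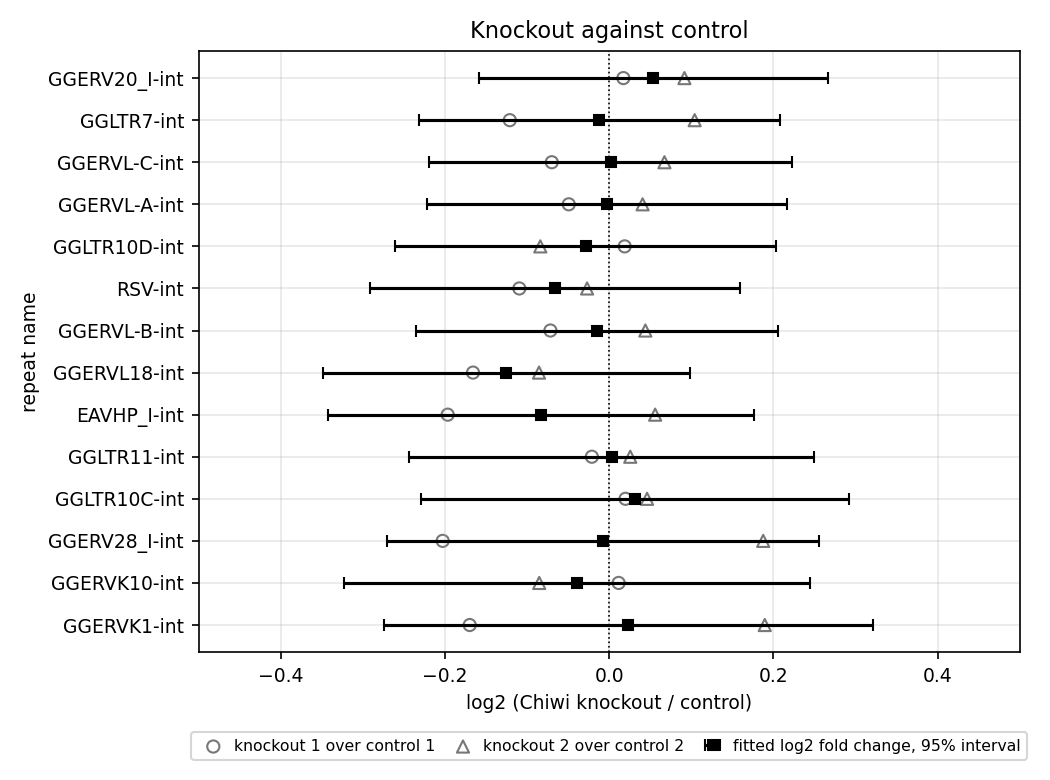
Log2 ratio of knockout over control for each of the 14 names: squares with bars give the fitted value and its 95% interval, open circles knockout replicate 1 over control replicate 1, and open triangles knockout replicate 2 over control replicate 2. Every interval includes 0, and for 10 of the 14 names the circle and the triangle lie on opposite sides of 0.

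For 12 of the 14 names, all except GGERV20_I-int and GGERVL18-int, the fitted log2 fold change was smaller in size than the difference within the knockout pair of libraries and also than that within the control pair, which held for 50.5% of 2802 tested names with reads in every library. A fold change rests on means of 2 libraries and so varies less than a difference between single libraries, even where nothing changes. The median size of the difference was 0.15 log2 units within the knockout pair and 0.099 within the control pair, against 0.23 and 0.24 over all names tested. Counting noise alone was exceeded (95% point of a chi-square with 1 degree of freedom) within the knockout pair for 9 of the 14 names, against 27.1% of the tested names, and within the control pair for 10, against 29.2%. A given relative spread exceeds counting noise more readily with more reads, and the 14 names had more reads than most. The share among names with similar reads was not computed.

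The direction of that spread was often shared by the replicate number. In 10 of the 14 names the same number was the higher one in both groups, against 52.8% of the 2802 tested names. Replicate 1 was higher in both groups for 4 names, GGERV20_I-int, GGLTR10D-int, GGLTR10C-int and EAVHP_I-int. Replicate 2 was higher in both groups for 6 names, RSV-int, GGLTR11-int, GGERVL-A-int, GGERVL-C-int, GGERVK10-int and GGERVK1-int. Across the 14 names, the log2 ratio of knockout replicate 1 to 2 and that of control replicate 1 to 2 had a Pearson correlation of 0.65 and a Spearman correlation of 0.57, while over the 2802 tested names the Pearson correlation was 0.15. This is a description over names of the same 4 libraries, some of which may share reads. Most of the tested names had fewer reads than the 14, and counting noise weakens such agreement. The share and the correlation among names with similar reads were not computed. The ranks of the names come from the same values and are no separate support. In knockout replicate 1 and control replicate 1, 10 names held the same rank, and 12 did in knockout replicate 2 and control replicate 2. Within the knockout pair 4 did, and within the control pair 5. Across numbers, 6 did in knockout replicate 1 and control replicate 2, and 7 in knockout replicate 2 and control replicate 1. The labels do not say what a replicate number stands for.

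**Figure D3:**
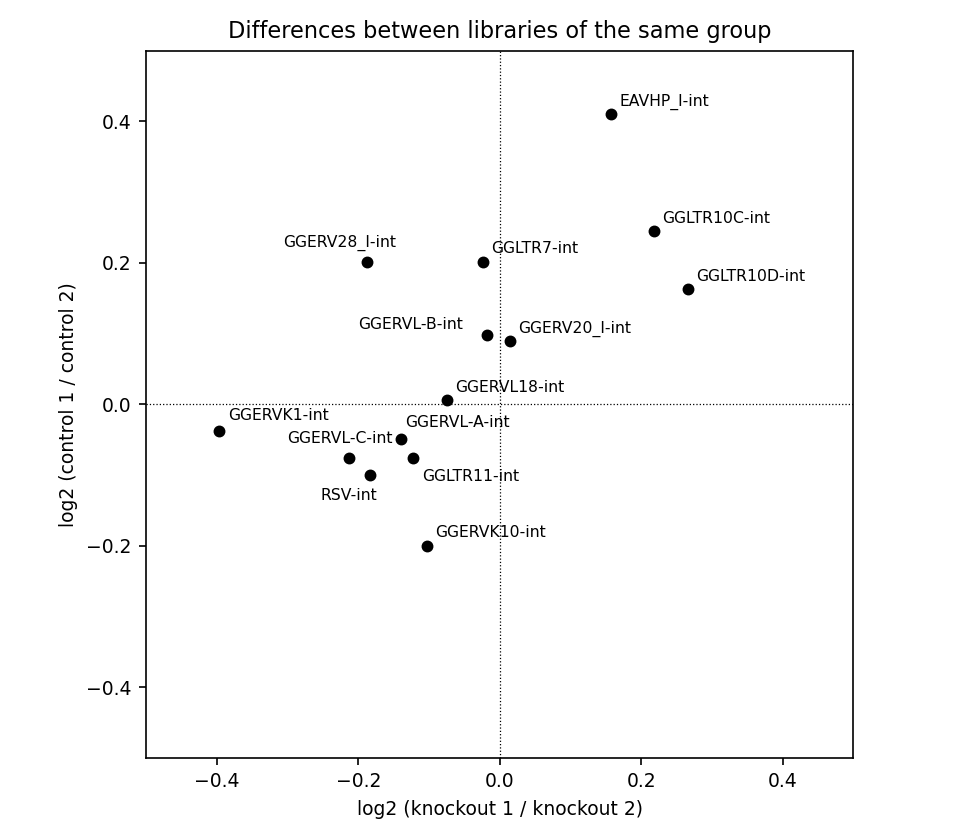
Log2 ratio of knockout replicate 1 to knockout replicate 2 (x axis) and of control replicate 1 to control replicate 2 (y axis) for each of the 14 names. The upper right and lower left parts of the plot hold the 10 names in which the same number was higher in both groups.

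Compared within numbers, knockout and control did not share a direction in CPM. With number 1, 4 of the 14 names were higher in the knockout library (median log2 ratio -0.071), and with number 2, 10 were (median 0.045). All repeat reads together were nearly level with number 1, at 6.98% of gene reads in knockout replicate 1 and 7.02% in control replicate 1. With number 2 they were 7.47% in the knockout library, against 7.10% in the control library. As a share of repeat reads outside simple and low-complexity repeats, the 14 names were lower in the knockout library with both numbers. The shares were 5.64% against 5.92% with number 1, and 5.43% against 5.69% with number 2. How many of all names tested were higher in the knockout library was not computed within numbers. Of the 4 names that kept a direction, GGERV20_I-int was higher in the knockout library by 0.017 and 0.092 log2 units, and GGLTR10C-int by 0.020 and 0.046. GGERVL18-int lay at -0.17 and -0.085, and RSV-int at -0.11 and -0.027. The difference within a number reached 0.20 log2 units at most.

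Reads on the internal part were also set against reads on the LTR of the same family, since a ratio within a library does not depend on its depth. An LTR of the same name was listed for 7 of the 14 names, 9 LTR names in all. For GGLTR10D and GGLTR11, where the LTR name equals the stem of the internal name, the match was added after the names had been seen. None of the 9 LTR names passed the edgeR test (adjusted p = 0.9997), and their log2 fold changes were above 0 for 3 and below 0 for 6. The ratio cannot be compared between families, because the lengths behind the names differ.

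RSV-int was the family with the fewest LTR reads. There were 51.3 and 54.3 internal reads per LTR read in knockout replicates 1 and 2, against 38.4 and 48.2 in control replicates 1 and 2, so the groups did not overlap. The RSV-LTR counts behind this were 66 and 72 reads in the knockout libraries, against 99 and 84 in the control libraries, at a log2 fold change of -0.37 (SE 0.25). GGERV28_I-int had 1.55 and 1.36 internal reads per read of GGERV28_LTR in the knockout libraries, against 1.29 and 1.25 in the control libraries, again without overlap. The groups thus did not overlap in 2 of the 7 families, beside 25.8% of the single repeat names tested. The log2 fold change of GGERV28_LTR was -0.19 (SE 0.14), beside -0.0080 for GGERV28_I-int. For RSV it was -0.37 for the LTR beside -0.066 for the internal part, and the difference between LTR and internal part was not tested. With 2 against 2 libraries, the exact two-sided permutation p of a ratio cannot go below 0.33.

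In the other 5 families the ratios of the groups overlapped. GGLTR10D-int had 11.9 ± 2.12 internal reads per LTR read in knockout and 13.3 ± 2.997 in control tissue (SD, n = 2 each). GGLTR11-int had 2.22 ± 0.154 in knockout and 2.16 ± 0.102 in control tissue. GGLTR10C-int had 1.59 ± 0.191 in knockout and 1.61 ± 0.0838 in control tissue. GGERVL18-int, the name with the lowest fold change, had 1.26 ± 0.0919 in knockout and 1.30 ± 0.0584 in control tissue, and the log2 fold change of its LTR was -0.081 (SE 0.12) beside -0.13 for the internal part. GGLTR7-int had 1.02 ± 0.0483 in knockout and 1.0004 ± 0.112 in control tissue.

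**Figure D4:**
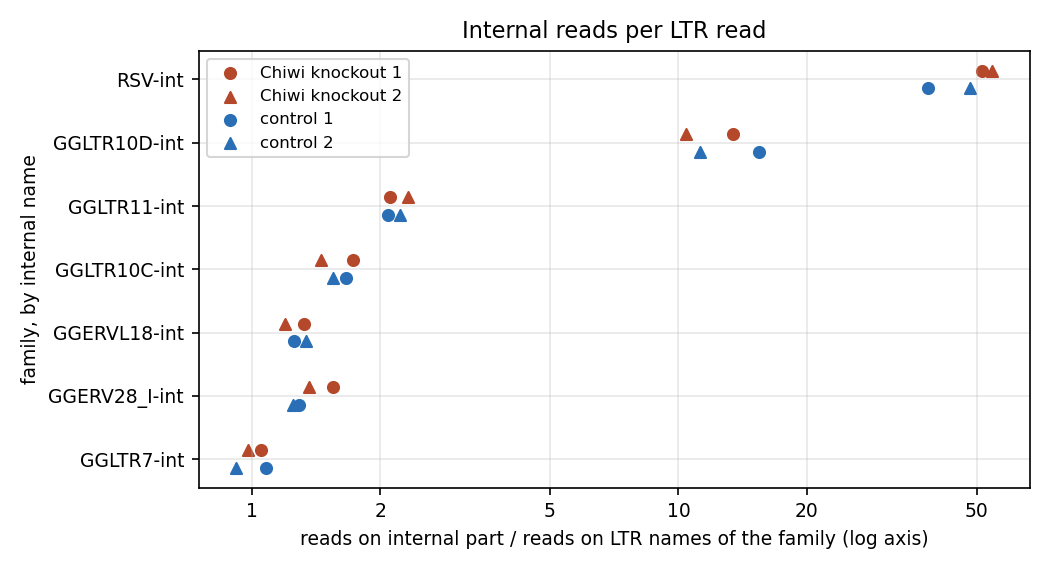
Reads on the internal part divided by reads on the LTR names of the same family, on a log axis, for the 7 families with a listed LTR, with the knockout libraries above the control libraries. RSV-int and GGERV28_I-int are the families in which both knockout points lie above both control points.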

How the data were processed

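The authors deposited raw read counts per Ensembl gene ID and per repeat name for each library. The submitters' processing notes name galGal6, Bowtie2, featureCounts and DESeq2. Their versions, the strand setting and the handling of multi-mapping reads were not given in the sources used here, so reads of related families, or of host transcripts over a repeat, may be split, dropped or shared. The deposited counts were tested in edgeR 4.0.16 under R 4.3.3 (filterByExpr, minimum count 10, minimum total 15; glmQLFit and glmQLFTest with group as the only term). The library size was the summed gene reads, with no further factor. P-values were Benjamini-Hochberg adjusted over all 2803 names tested, with a threshold of 0.05, and an SE is the log2 fold change over the root of its F statistic. The function was run on simulated counts with known changes. These had the same spread setting for all names and unrelated libraries, so they do not check the p-values or intervals of the real data.

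The rule for the members used names only, but the rule, the lists and the tests were chosen with earlier results of these data known. Every member is named. Values of all 4 libraries are given for the 10 with the highest level and the 3 per direction with the smallest p. An LTR was paired with a member where the names share a stem. Lists of PIWI-pathway genes and cell type markers were planned but not analysed here, since no gene ID was paired with a symbol. The alternatives were DESeq2 1.42.0, limma-voom (limma 3.58.1), other scalings, no filter, no simple repeats, a replicate block, robust=TRUE and leaving out each library. Counting errors cover counting only.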

Additional observations from a re-analysis of the deposited data

How the results depend on the processing

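The count of 0 of 14 names past the threshold held under all 13 alternatives, with 0.895 the smallest adjusted p of any of them (edgeR, DESeq2 or limma-voom) and 0 names at an unadjusted p under 0.05. Over all repeats the count was 0 in each setting except those that left out a control library. Leaving out 1 library gave 0 to 2, namely 1 without control replicate 1 (ENS1-LTR) and 2 without control replicate 2 ((CTTGGC)n and (CCGAGG)n). At an unadjusted p under 0.05, edgeR gave 39, DESeq2 8 and limma-voom 38. In the fits without 1 library, the lone library of a group is taken to vary as the rest do.

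The ratio of summed levels, 1.0001, lay between 0.977 and 1.02 without 1 of the libraries. It was 1.06 with ENS1-int and ENS3-int added.

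GGERVL18-int and GGERV20_I-int kept their sign in all 13 alternatives. Their groups did not overlap, so leaving out 1 library could not turn them and is no separate support. The other 12 turned when 1 library was left out. The log2 fold change then ranged from -0.11 to 0.092 for GGLTR7-int, -0.11 to 0.10 for GGERVL-C-int, -0.074 to 0.065 for GGERVL-A-int, -0.17 to 0.098 for GGLTR10D-int, -0.16 to 0.022 for RSV-int and -0.063 to 0.035 for GGERVL-B-int. It ranged from -0.27 to 0.14 for EAVHP_I-int, -0.059 to 0.063 for GGLTR11-int, -0.085 to 0.16 for GGLTR10C-int, -0.11 to 0.096 for GGERV28_I-int, -0.14 to 0.064 for GGERVK10-int and -0.19 to 0.21 for GGERVK1-int. GGERVL-A-int, RSV-int, GGLTR10C-int, GGERV28_I-int and GGERVK10-int turned without knockout replicate 1. GGERVL-C-int, GGLTR10D-int, GGLTR11-int and GGERVK1-int turned without knockout replicate 2. GGLTR7-int, GGERVL-C-int, GGLTR10D-int, GGERVL-B-int, EAVHP_I-int, GGLTR11-int and GGERV28_I-int turned without control replicate 1. GGERVL-A-int, GGLTR10C-int and GGERVK10-int turned without control replicate 2. The median over all names tested also turned, from below to above 0, without knockout replicate 1 and without control replicate 1.

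Scaling from the repeat table lowered all names alike (median shift -0.033 log2 units over all names tested, -0.037 to -0.028 over the 14), so names near 0 changed sign: GGERVL-C-int was at -0.033, GGLTR11-int at -0.030 and GGERVK1-int at -0.014. GGERVL-C-int was at -0.0011 with limma-voom and at -0.0012 with the replicate block, where the cause was not tested. The block changed no call. Whether a number pairs the libraries is not in the labels, and deviations of same-numbered libraries correlated by 0.34 over genes and 0.17 over repeat names.

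The prior degrees of freedom were 27.4 in the reported fit and 78.1 with TMM factors, where the 14 intervals reached from 0.784-fold to 1.24-fold. Without a low-count filter they reached from 0.718-fold to 1.34-fold. With 1 library left out, the lowest end was 0.677-fold, without knockout replicate 2, and the highest was 1.49-fold, without knockout replicate 1.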
